A study of Homo sapiens with 8 samples.

Results

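In the HuCCT1 cell line, 763 TEAD1 peaks also overlapped a TEAD4 peak and a peak of HA-tagged YAP5SA by at least 1 bp, and these TEAD sites with YAP5SA are described here. They are 763 of 38186 TEAD1 peaks (percent called, 2.0%), and the other 10905 TEAD1 peaks that overlapped TEAD4 but not HA-YAP5SA are called TEAD sites without YAP5SA. Members were chosen by the authors' peak calls in the TEAD1, TEAD4 and HA-YAP5SA lists, so scores and positions from these lists are a description and carry no test. The lists of the YAP and TAZ antibodies and the spacing of sites along chromosomes did not enter the rule.

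HuCCT1 is an established human cholangiocarcinoma (bile duct cancer) line, and protein occupancy was measured by chromatin immunoprecipitation and sequencing (ChIP-seq). There was 1 library per group: HA-YAP5SA, TEAD1, TEAD4, YAP and TAZ (WWTR1), with GFP, IgG and input named as background in the design and not analysed here. The design describes HA-YAP5SA as an enrichment through the HA tag, and GFP as the matching control of that procedure. How the tagged protein was introduced, its level against endogenous YAP, and any treatment or time were not stated in the labels. Nor do they say whether the cells of the YAP, TAZ, TEAD1 and TEAD4 libraries carried it. With 1 library per antibody there is no replicate to check any difference against, and no p-value is given. Intervals are exact 95% Clopper-Pearson intervals, which cover counting error over peaks only, and the sequencing depth is unknown. For a count of 0, the share that 3 counts would make is given as well, and it is below the exact upper bound.

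YAP and TAZ are the coactivators at the end of the Hippo pathway, in which the LATS kinases phosphorylate them and hold them outside the nucleus. They have no DNA-binding domain of their own and reach chromatin mainly through the TEAD family, whose members share the TEA DNA-binding domain and recognise a short element known as MCAT. In YAP5SA the serines that LATS phosphorylates are replaced by alanine, so that the protein escapes this restraint. YAP and TEAD are known to act mostly at enhancers. The nearby genes and the DNA sequence of these sites were not analysed here, since the peaks are on the hg19 build and no genome of that build was used.

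The sites with YAP5SA held 782 of the 847 HA-YAP5SA peaks (92.3%, interval 90.3 to 94.0%) and 785 of the 12188 TEAD4 peaks (6.44%, 6.01 to 6.89%). Most were simple, with 1 HA-YAP5SA peak at 744 sites and 1 TEAD4 peak at 743 sites. A pair of HA-YAP5SA peaks lay in 1 TEAD1 peak at 19 sites, and 18 sites held 2 TEAD4 peaks and 2 sites held 3. No HA-YAP5SA or TEAD4 peak was counted at more than 1 site. Where a site held several peaks of a list, the highest-scoring one is used below unless the text counts all peaks. The score is the authors' own value for each peak, on a scale that is not stated, and it is used only to rank peaks within a list.

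Most sites with YAP5SA stood near the top of the TEAD1 list. Their TEAD1 scores ran between 91.2 and 3147, with a median of 1203 (interquartile range 823 to 1631), against a median of 428 (272 to 665) at TEAD sites without YAP5SA. In the whole TEAD1 list the median member lay at the percentile 97.7, and 232 members (30.4%, interval 27.2 to 33.8%) lay in the highest 1%. A further 306 lay between the percentiles 95 and 99, 120 between 90 and 95, and 71 between 80 and 90. The remaining 34 comprised 31 between 50 and 80 and 3 below the median of the list. The TEAD4 peaks followed the same pattern, with a median score of 537 (335 to 840) per site with YAP5SA, against 159 (110 to 253) per site without.

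Peak shape differed in the same direction as the score. The median TEAD1 peak spanned 790 bp at sites with YAP5SA (middle 50% of sites, 694 to 915 bp), against 664 bp at sites without (573 to 778 bp). Width followed score among the members (Spearman's rho 0.50). In the highest decile of the TEAD1 score the medians were closer, at 816.5 bp with YAP5SA and 770 bp without. TEAD4 peaks, all counted, had median widths of 490 bp (407 to 588 bp) with YAP5SA, against 346 bp (279 to 430 bp) without. HA-YAP5SA peaks at these sites, all counted, were narrower than either, with a median of 229 bp (167 to 333 bp). The highest-scoring HA-YAP5SA peak per site had a median width of 29.4% of that of its TEAD1 peak.

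**Figure D1:**
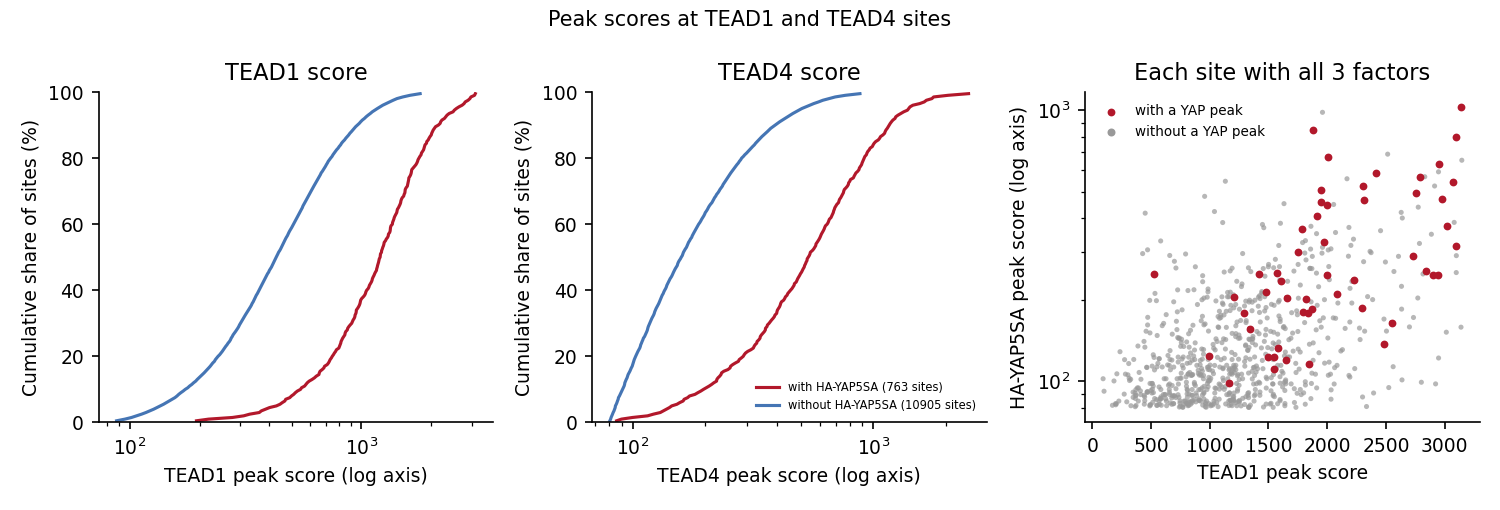
Left and middle, cumulative share of sites (%) against the TEAD1 and TEAD4 peak scores (log axes) for 763 sites with HA-YAP5SA (red) and 10905 without (blue); the median TEAD1 score is 1203 with and 428 without. Right, TEAD1 score against HA-YAP5SA score (log axis) for each site with HA-YAP5SA; the 52 sites with a YAP peak (red) gather at the upper right.

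Sites with YAP5SA were most frequent where both TEAD scores were high. All 11668 TEAD1 peaks with TEAD4 were cut into 5 classes of equal size by each score, class 5 being the highest. Sites in class 5 of both scores carried HA-YAP5SA at 535 of 1690 (31.7%, interval 29.4 to 33.9%). Sites in class 5 by TEAD1 and class 4 by TEAD4 carried it at 37 of 458 (8.08%, 5.75 to 11.0%), and sites in class 5 by TEAD4 and class 4 by TEAD1 at 42 of 477 (8.81%, 6.42 to 11.7%). In class 1 of both it was present at 2 of 1121 (0.178%, 0.0216 to 0.643%). The share kept growing inside class 5: it was 379 of 792 (47.9%, 44.3 to 51.4%) in the top 10% by both scores and 64 of 76 (84.2%, 74.0 to 91.6%) in the top 1% by both. These shares use the same calls as the rule and describe how the members are spread.

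**Figure D2:**
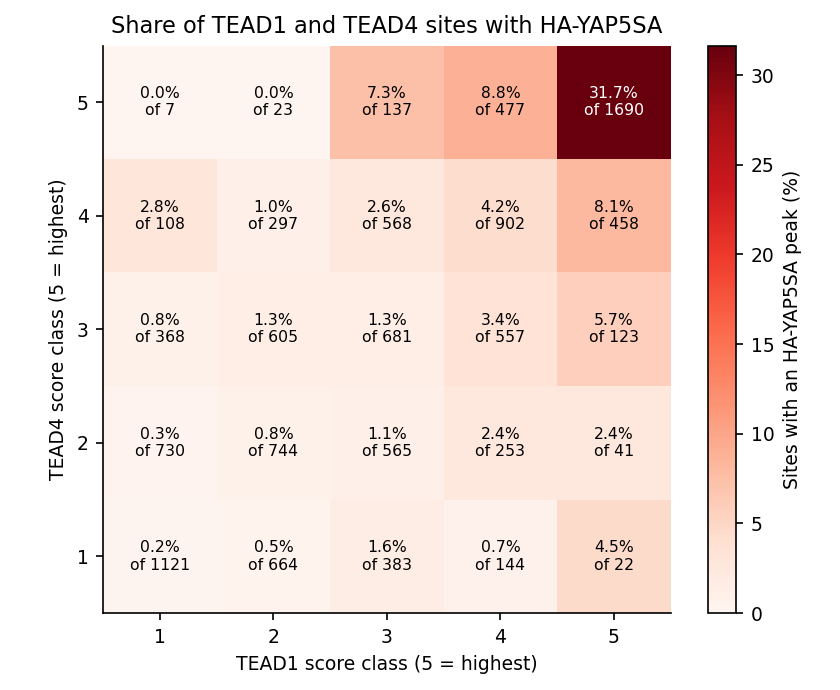
Share of TEAD1 and TEAD4 sites that carry an HA-YAP5SA peak (%, colour and upper number; number of sites below) by 5 equal classes of the TEAD1 score (horizontal) and of the TEAD4 score (vertical), class 5 being the highest. The top right cell holds 535 of 1690 sites (31.7%), and its neighbours 8.08% and 8.81%.

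The 10 members named by the best mean rank over the TEAD1, TEAD4 and HA-YAP5SA scores stand for the strongest sites in all lists; coordinates are hg19 and those of the TEAD1 peak. The first, on chromosome 14 (62221091 to 62222739), had scores of 3144 for TEAD1, 3100 for TEAD4, 1028 for HA-YAP5SA and 924 for YAP. It held the highest HA-YAP5SA score, and its YAP score was the highest among members. The site on chromosome 7 (55034703 to 55035819) had the highest TEAD1 score of all peaks, 3147, with 2313 for TEAD4 and 654 for HA-YAP5SA. It had no peak of the YAP antibody, so a high rank in the 3 lists did not go with a YAP call everywhere. In the whole lists 8 TEAD1 and 5 TEAD4 peaks scored 3100 or more, several of them exactly 3100. Whether that value is a ceiling of the score is not stated, so the order among these peaks is uncertain.

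Chromosome 1 gave 3 of the 10. The site at 109045427 to 109046320 had scores of 3100 for TEAD1, 1763 for TEAD4, 794 for HA-YAP5SA and 208 for YAP. The site at 19378681 to 19379686 had 2955 for TEAD1, 2954 for TEAD4, 632 for HA-YAP5SA and 361 for YAP. The site at 86072459 to 86073634 had 3100 for TEAD1, 2384 for TEAD4, 316 for HA-YAP5SA and 111 for YAP. All 3 carried a YAP peak, the last with the lowest YAP score of the trio and, at 833 bp, the widest HA-YAP5SA peak of all members.

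The other 5 were spread over chromosomes 2, 3, 4 and 12. The site on chromosome 4 (102874954 to 102875776) had scores of 2948 for TEAD1, 2302 for TEAD4 and 593 for HA-YAP5SA. The site on chromosome 12 (26243879 to 26244700) had 2831 for TEAD1, 2015 for TEAD4 and 569 for HA-YAP5SA. Neither carried a YAP peak. On chromosome 2, the site at 12164077 to 12165022 had 3073 for TEAD1, 1789 for TEAD4, 546 for HA-YAP5SA and 141 for YAP, and the site at 151267258 to 151268026 had 2758 for TEAD1, 1692 for TEAD4, 493 for HA-YAP5SA and 119 for YAP. The tenth, on chromosome 3 (42955864 to 42956774), had 2775 for TEAD1, 1665 for TEAD4 and 439 for HA-YAP5SA. It was the best-ranked of the 19 sites with a pair of HA-YAP5SA peaks and had no YAP peak. In all, 6 of the 10 carried YAP, against 52 of the 763 members (6.82%) and 80 of all 38186 TEAD1 peaks (percent called, 0.210%). These 10 were picked by TEAD1, TEAD4 and HA-YAP5SA score, and the YAP share of members rose with each of these scores.

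The highest TEAD1 scores came with a wide range of HA-YAP5SA scores. The third-highest TEAD1 peak among members, on chromosome 15 (63400049 to 63400876), scored 3140 for TEAD1, 1822 for TEAD4 and 158 for HA-YAP5SA, where the median member had 117. The site on chromosome 13 (114599753 to 114600813), among the members tied at 3100, scored 3100 for TEAD1, 1762 for TEAD4 and 291 for HA-YAP5SA, which is in the highest of 4 groups of members by HA-YAP5SA score. Neither of these had a YAP peak.

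At the other end, the 5 members with the lowest TEAD1 scores had HA-YAP5SA scores of 81.5 to 102. The lowest, on chromosome 14 (105149278 to 105149962), scored 91.2 for TEAD1, 81.0 for TEAD4 and 102 for HA-YAP5SA, all near 80, where the lists begin. The next, on chromosome 8, scored 99.2 for TEAD1, 218 for TEAD4 and 91.9 for HA-YAP5SA. The remaining 3 were on chromosome 1, with TEAD1 scores of 171 (15664634 to 15665228), 184 (68213271 to 68213765) and 196 (33435077 to 33435480). None of the 5 carried a YAP peak. The 3 lowest HA-YAP5SA scores of members, all 80.1, belonged to sites with TEAD1 scores of 1330 to 1540, such as the site on chromosome 15 at 39288058 to 39288876 (TEAD1 score 1334).

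Over all members the 3 scores moved together to different degrees. Spearman's rho over the 763 sites was 0.83 between TEAD1 and TEAD4, 0.46 between TEAD1 and HA-YAP5SA and 0.51 between TEAD4 and HA-YAP5SA. Sites share the library behind each score and their local chromatin, so these values are a description. Members were ordered by TEAD1 score into 4 groups of 190 or 191, from the lowest to the highest. The median HA-YAP5SA score was 97.7, 108, 128 and 187 in these groups. In the highest TEAD1 group, 99 of 191 sites (51.8%, interval 44.5 to 59.1%) were also in the highest of 4 HA-YAP5SA groups, against 16 of 191 (8.38%, 4.86 to 13.2%) in the lowest TEAD1 group. The same number, 16 of 191, combined the highest TEAD1 group with the lowest HA-YAP5SA group.

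HA-YAP5SA peaks lay inside the TEAD1 peaks rather than at their edges. The HA-YAP5SA peak was wholly inside the TEAD1 peak at 756 of 763 sites (99.1%, interval 98.1 to 99.6%). The TEAD4 peak was wholly inside the TEAD1 peak at 703 (92.1%, 89.99 to 93.9%). At sites without YAP5SA the TEAD4 peak was inside at 10151 of 10905 (93.1%, 92.6 to 93.6%). HA-YAP5SA and TEAD4 met directly at 762 sites. The exception was on chromosome 1 (178095680 to 178096630), where the HA-YAP5SA peak scored 80.3 and its centre lay 353 bp from that of TEAD4. The centre of HA-YAP5SA was a median of 51.5 bp away from that of TEAD4, with the middle 50% of sites between 25 and 87.5 bp. From the centre of TEAD1 it was 66.5 bp away (32.5 to 116 bp). TEAD4 and TEAD1 centres were 44 bp apart (19.5 to 74 bp), and 43 bp apart (20.5 to 78 bp) at sites without YAP5SA. In sonicated chromatin these distances are shorter than the fragments, whose size the labels give as 200 to 500 bp.

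Within a TEAD1 peak, HA-YAP5SA lay more often on the side where TEAD4 lay. The HA-YAP5SA centre was nearer to the TEAD4 centre than to the TEAD1 centre at 454 of 763 sites (59.5%, interval 55.9 to 63.0%), nearer to TEAD1 at 307 and at equal distance at 2. HA-YAP5SA and TEAD4 centres fell on the same side of the TEAD1 centre at 524 of 762 sites (68.8%, 65.3 to 72.0%), with 1 site left out because a distance was 0. Where the HA-YAP5SA centre was at least 100 bp from the TEAD1 centre, this was 216 of 249 sites (86.7%, 81.9 to 90.7%). The offsets of both are measured from the same TEAD1 centre, and TEAD1 peaks are wider, so an off-centre TEAD1 peak moves both in the same direction. How much this adds was not tested.

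**Figure D3:**
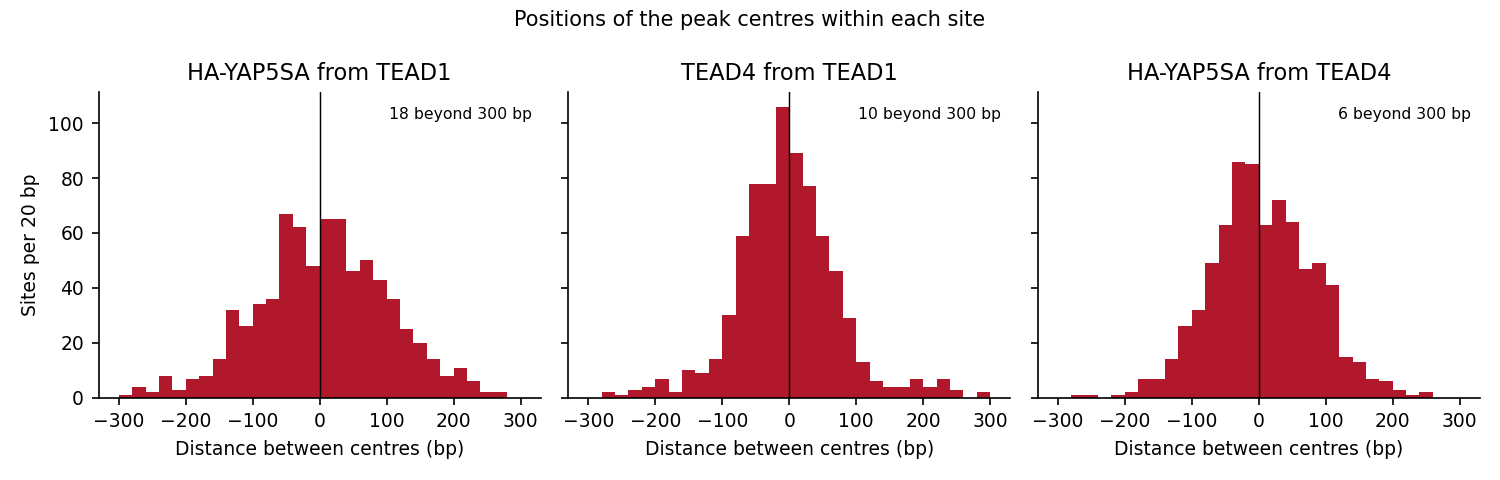
Number of sites per 20 bp (vertical) against the distance between peak centres in bp (horizontal) at the 763 sites, for HA-YAP5SA from TEAD1, TEAD4 from TEAD1 and HA-YAP5SA from TEAD4, positive values lying at higher coordinates. All 3 distributions centre on 0, with 18, 10 and 6 sites beyond the 300 bp shown.

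The 19 sites with a pair of HA-YAP5SA peaks had centres a median of 229 bp apart (lowest 120 bp, highest 852 bp). Their TEAD1 peaks spanned 754 bp in the median, against 790 bp for the 744 sites with 1 peak. Their median TEAD1 score was 1494, against 1198. Of the 19, 2 (10.5%, interval 1.30 to 33.1%), both on chromosome 3 (58546411 to 58547073 and 197216738 to 197217393), also carried a YAP peak, 1 each. The first scored 2001 for TEAD1 and 111 for YAP, and the second 1837 for TEAD1 and 111 for YAP.

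The antibody against YAP, whose list the rule did not use, gave 454 peaks with a median width of 628 bp. It had peaks at 52 of the 763 sites (6.82%, interval 5.13 to 8.84%). The background was 80 of all 38186 TEAD1 peaks (percent called, 0.210%) and 65 of the 11668 TEAD1 peaks with TEAD4 (percent called, 0.557%). At TEAD sites without YAP5SA it was 13 of 10905 (0.119%, 0.0635 to 0.204%), and at TEAD1 peaks without TEAD4 and HA-YAP5SA it was 15 of 26494 (0.0566%, 0.0317 to 0.0934%). Of the 52 members with YAP, 44 had a YAP peak below the median score of the YAP list. With YAP peaks at or above that median, the shares were 8 of 763 with YAP5SA (1.05%, 0.454 to 2.06%), against 5 of 10905 without (0.0459%, 0.0149 to 0.107%). Over all TEAD1 peaks it was 26 of 38186 (percent called, 0.0681%). The 5 sites without YAP5SA had wide YAP peaks, of 900 to 3320 bp, and TEAD1 scores of 115 to 640. No YAP peak at members was wider than 544 bp, so these 2 shares count unlike peaks. With HA-YAP5SA peaks at or above their own median score, the share of the 399 sites left was 12.53%. The intervals at sites with and without YAP5SA did not overlap with either set of YAP peaks. They cover counting over peaks within 1 library each, and whether the difference would recur in another precipitation was not measured.

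Within the 2 highest ranges of the TEAD1 score the share was again larger at sites with YAP5SA. Such ranges did not make the 2 classes alike in TEAD score. In the highest decile of the TEAD1 score the median TEAD4 score was 608 with YAP5SA, against 314 without. The median TEAD1 score there was 1307, against 856. How much of the difference in YAP share goes with the TEAD scores was not tested. Above the percentile 99 of the TEAD1 list, YAP was present at 43 of 232 sites with YAP5SA (18.5%, interval 13.8 to 24.1%), against 3 of 150 sites without (2%, 0.414 to 5.73%). Between the percentiles 95 and 99 it was at 8 of 306 with (2.61%, 1.14 to 5.09%), against 2 of 1204 without (0.166%, 0.0201 to 0.599%). Between 90 and 95 no site of 120 with YAP5SA had it, and a count of 0 allows up to 2.5% by 3 counts (exact upper bound 3.03%). Without YAP5SA it was 2 of 1693 (0.118%, 0.0143 to 0.426%), so a difference was not detectable there. By quintiles of the TEAD1 score, all 52 sites fell in the highest, 52 of 729 (7.13%, 5.37 to 9.25%) against 9 of 5941 without YAP5SA (0.151%, 0.0693 to 0.287%). The lower quintiles held 34 members in all, too few to show a share of this size.

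Most members with a YAP peak scored high for both HA-YAP5SA and TEAD1. Split at the medians of the members, 47 of 251 sites in the upper part by HA-YAP5SA and by TEAD1 had YAP (18.7%, interval 14.1 to 24.1%). Sites in the upper part by HA-YAP5SA only had it at 2 of 130 (1.54%, 0.187 to 5.45%), and sites in the upper part by TEAD1 only at 2 of 130 as well. In the lower part by both it was 1 of 252 (0.397%, 0.0100 to 2.19%). Over the 4 HA-YAP5SA score groups, from the lowest to the highest, YAP was at 0 of 196 sites (a count that allows up to 1.53% by 3 counts, exact upper bound 1.86%), then 3 of 186 (1.61%), 11 of 190 (5.79%) and 38 of 191 (19.9%). Over the 4 TEAD4 groups it was at 0 of 191, 4 of 191, 8 of 190 and 40 of 191 sites.

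**Figure D4:**
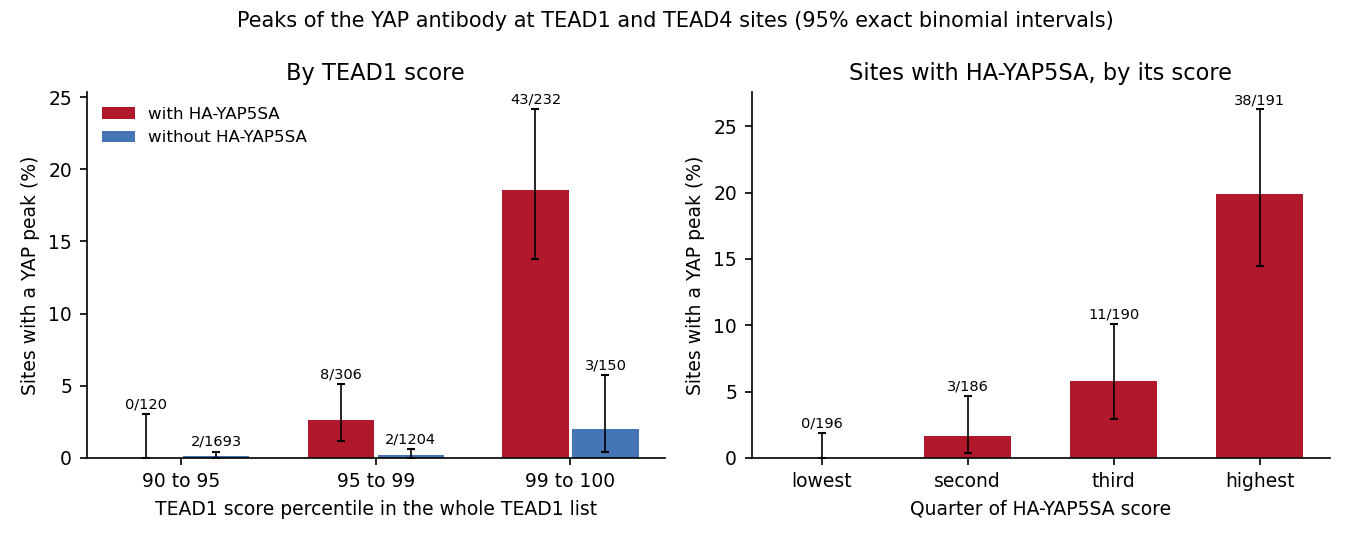
Share of TEAD1 and TEAD4 sites with a peak of the YAP antibody (%, bars; lines are exact 95% binomial intervals; numbers are sites with YAP over all sites). Left, by TEAD1 score percentile, 43 of 232 sites with HA-YAP5SA (red) and 3 of 150 without (blue) above the percentile 99; right, by HA-YAP5SA score group, between 0 of 196 in the lowest and 38 of 191 in the highest.

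YAP peaks at the members were compact. All 52 were at most 1 kb wide, between 134 and 544 bp with a median of 227 bp, while the 18 YAP peaks at TEAD sites without YAP5SA had a median of 668 bp and reached 3320 bp. The YAP score at members had a median of 107 and a highest value of 924, against a median of 179 and a highest value of 1259 at the other sites. Those 18 peaks were mixed, with 10 of them at most 1 kb wide. Taking 1 YAP peak per site without YAP5SA, those of 127 to 224 bp scored 81.3 to 138. Those of 900 to 3320 bp scored 212 to 1259, so the higher median there came with the wide peaks. With YAP peaks of at most 1 kb only, the shares were 52 of 763 with YAP5SA (6.82%), against 9 of 10905 without (0.0825%, 0.0377 to 0.157%). The YAP centre lay a median of 39.5 bp from the HA-YAP5SA centre, 50 bp from the TEAD4 centre and 62.3 bp from the TEAD1 centre.

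Of the 10 members with the highest YAP scores, 4 are among the sites named above. The site on chromosome 1 at 246598674 to 246599468 had scores of 275 for YAP, 588 for HA-YAP5SA, 1486 for TEAD4 and 2418 for TEAD1. The site on chromosome 3 at 101561279 to 101561865 had 228 for YAP, 301 for HA-YAP5SA, 1729 for TEAD4 and 1755 for TEAD1. Its TEAD1 peak of 587 bp was among the narrower ones. On chromosome 13, the site at 111137711 to 111138446 had 173 for YAP, 674 for HA-YAP5SA, 1869 for TEAD4 and 2008 for TEAD1, and its HA-YAP5SA and TEAD4 centres were 3 bp apart.

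The remaining 3 had YAP scores of 165 on chromosome 12 (46887959 to 46888783), 160 on chromosome 10 (96157139 to 96158294) and 141 on chromosome 14 (56072355 to 56073150). Their HA-YAP5SA scores were 255, 569 and 363 and their TEAD1 scores 2840, 2792 and 1784, in the same order. At the chromosome 10 site the TEAD4 centre lay 177 bp from the HA-YAP5SA centre, which fell 2.5 bp from the TEAD1 centre. Over the 52 sites Spearman's rho of the YAP score was 0.42 with HA-YAP5SA, 0.39 with TEAD4 and 0.30 with TEAD1, as a description over peaks of single libraries.

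Across the members, those with YAP had a median HA-YAP5SA score of 248 and a median HA-YAP5SA width of 371 bp, against 113 and 226 bp at the 711 without. Their median TEAD1 score was 1946, against 1170, and their median TEAD4 score was 1185, against 518. The ranges overlapped: the lowest TEAD1 score of a member with YAP was 529, and the highest of a member without YAP was 3147.

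TAZ, the paralogue of YAP, gave no peak at any of the 763 sites, and a count of 0 among them allows a share as high as 0.393% by 3 counts (exact upper bound 0.482%). The background was also 0 of 38186 TEAD1 peaks (percent called, 0%), from a list of 153 TAZ peaks, so no difference between classes was detectable.

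Members are 763 of the 38186 TEAD1 peaks, so the nearest other member cannot lie closer than the nearest other TEAD1 peak. The distances are therefore compared between classes of sites. The nearest other member was a median of 824 kb away (interquartile range 191 to 2205 kb), and 38 members (4.98%, interval 3.55 to 6.77%) had another within 12500 bp. TEAD sites without YAP5SA lay a median of 892 kb from a member, with 339 of 10905 (3.11%, 2.79 to 3.45%) within 12500 bp, as were 907 of all 38186 TEAD1 peaks (percent called, 2.38%). In the highest decile of the TEAD1 score these shares were 34 of 658 with YAP5SA (5.17%, 3.605 to 7.15%), against 112 of 3047 without (3.68%, 3.04 to 4.41%), and the intervals overlapped. Another TEAD1 peak of any kind lay within 12500 bp of 487 members (63.8%, 60.3 to 67.2%), against 6293 of 10905 TEAD sites without YAP5SA (57.7%, 56.8 to 58.6%) and 19772 of all 38186 TEAD1 peaks (percent called, 51.8%). In the highest decile of the TEAD1 score the shares were 443 of 658 with YAP5SA (67.3%, 63.6 to 70.9%), against 1822 of 3047 without (59.8%, 58.0 to 61.5%). The median distance to the nearest TEAD1 peak in that decile was 7.09 kb with YAP5SA, against 8.26 kb without, a small difference next to the interquartile ranges of 2.61 to 19.3 kb and 2.69 to 23.1 kb.

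**Figure D5:**
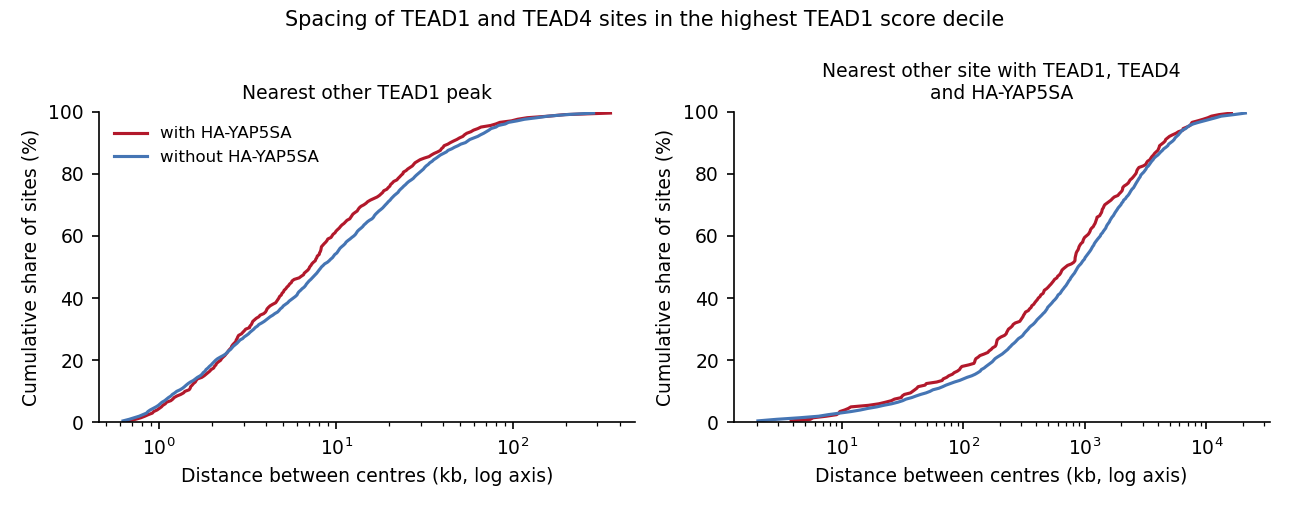
Cumulative share of sites (%) against the distance in kb (log axis) to the nearest other TEAD1 peak (left) and to the nearest other site with TEAD1, TEAD4 and HA-YAP5SA (right), for sites in the highest TEAD1 score decile with HA-YAP5SA (red, 658) and without (blue, 3047). The medians are 7.09 kb with and 8.26 kb without on the left, and 696 kb with and 879 kb without on the right.

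Joined at a distance of 50 kb, the members formed 36 pairs and 6 groups of 3, and 673 stood alone. The groups of 3 are ordered by their length, and the 3 shortest are described. The shortest, on chromosome 9 (114792012 to 114805001), spanned 13.0 kb with TEAD1 scores of 1306, 409 and 2637 and HA-YAP5SA scores of 198, 92.2 and 101. Its highest TEAD1 score did not hold its highest HA-YAP5SA score. The next, on chromosome 11 (68886545 to 68899620), spanned 13.1 kb with TEAD1 scores of 489, 1538 and 1330 and HA-YAP5SA scores of 81.1, 97.7 and 87.0, all below the median member in HA-YAP5SA. In these groups every TEAD1 peak was a member. The third, on chromosome 14 (62019451 to 62061617), held 11 TEAD1 peaks, 8 of them with TEAD4, and its 3 members had TEAD1 scores of 1012, 1791 and 655 and HA-YAP5SA scores of 81.9, 325 and 114. None of these 9 members carried a YAP peak.

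Few sites lay near the boundary of the rule in position. By score many did, since the 196 members in the lowest HA-YAP5SA group scored 80.1 to 93.2, near 80, where the lists begin. The smallest overlap of a member with its HA-YAP5SA peak was 81 bp, on chromosome 17 (26216049 to 26216622), where the whole HA-YAP5SA peak lay inside. The smallest where the peak reached beyond the TEAD1 peak was 126 of 139 bp, also on chromosome 17 (40575153 to 40575748), with scores of 208 for TEAD1, 223 for TEAD4 and 107 for HA-YAP5SA. The smallest overlap with TEAD4 was 172 bp, on chromosome Y (687100 to 687748). Just outside, no TEAD site without YAP5SA had an HA-YAP5SA peak within 100 bp of its edge, and 17 had one within 500 bp. The closest, on chromosome 4 (84129540 to 84130386), was 192 bp from an HA-YAP5SA peak with a score of 233, and itself scored 471 for TEAD1 and 127 for TEAD4.

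The condition of a TEAD4 peak removed 24 of the 787 TEAD1 peaks with HA-YAP5SA. These 24 were weaker in both lists, with a median TEAD1 score of 265 and a highest of 917, against a median of 1203 at the members. Their median HA-YAP5SA score was 95.8 and the highest 172, against a median of 117 and a highest of 1028 at the members. None had a YAP peak, and since a count of 0 allows up to 3 of 24 (exact upper bound 14.2%), this number of sites shows no difference.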

How the data were processed

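The 5 deposited peak lists (TEAD1, TEAD4, HA-YAP5SA, YAP, TAZ) give a chromosome, start, end, name and score per peak, 1 library each, with nothing pooled. The submitters' processing notes name Bowtie2 (no version) and the hg19 build. Peak names begin with MACS, per the files. Caller version, threshold and control: not given in the sources used here. The score is the authors' own, on an unstated scale: lists begin at about 80, several values sit at 3100, and a score mixes antibody, depth and control, so it is compared only within a list.

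Starts in lists without a header were read as counted from 0 and raised by 1. Overlap means at least 1 bp, and centres are interval midpoints. Overlap counts were checked against bedtools 2.31.1, and on simulated lists of 847 peaks all 85, 424 and 805 planted overlaps were found. The planted peaks began inside TEAD1 peaks and the others lay on no real chromosome. The simulation therefore could not show false overlaps or errors at peak edges. Calculations ran in Python 3.11.15 with SciPy 1.17.1, pandas 2.3.3 and NumPy 2.4.6, and plots in matplotlib 3.10.9. Peaks were named by rule: 10 by best mean rank, 5 by highest and 5 by lowest TEAD1 score, 10 by YAP score, 3 groups of neighbours, and those nearest the boundary. Other sites singled out, the narrow score ranges and the splits of members were chosen after their values were seen. Members and measures were chosen with earlier results of these data known.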

Additional observations from a re-analysis of the deposited data

How the results depend on the processing

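Of 47 alternative values, 38 stayed within the interval of the value reported (for the number of sites, within 1.5 times), among them every value under an overlap of 50% of the shorter peak, centres within 500 bp, chromosomes 1 to 22 and X, TEAD4 peaks at or above their median score and all starts counted from 0. Several of the 38 had little room to move. No TEAD1 peak of 38186 overlapped TAZ, so the TAZ share stayed at 0. HA-YAP5SA was wholly inside the TEAD1 peak at 756 of 763 sites, which limits the 50% overlap setting, and counting starts from 0 moves them by 1 bp. With HA-YAP5SA peaks at or above their median score there were 399 sites, with a median TEAD1 score of 1443, a median distance of 44.5 bp from HA-YAP5SA to TEAD4, a YAP share of 12.53% and 2.51% of sites within 12500 bp of another. With YAP peaks at or above their median score the YAP share was 1.05%, since most YAP peaks at these sites score below that median. The highest TEAD1 decile had a median TEAD1 score of 1307. The share of sites near another was 1.05% at 5 kb and 11.8% at 50 kb. The TEAD1 decile and the limit of 1 kb on YAP peaks were added after seeing the data, as was applying each setting to results it was not planned for. The planned work on motifs, transcription starts and gene lists was not run, for lack of a reference on hg19. No paired analysis was possible because each group has 1 library. Depth is unknown, and a peak missing from a list does not show that the protein was absent.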

Other observations

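The share of TEAD1 and TEAD4 sites that carried YAP5SA varied between chromosomes. It was 116 of 1378 on chromosome 1 (8.42%, exact 95% interval 7.01 to 10.0%), 62 of 708 on chromosome 3 (8.76%, 6.78 to 11.1%) and 44 of 480 on chromosome 14 (9.17%, 6.74 to 12.1%). On chromosome 2 it was 36 of 910 (3.96%, 2.79 to 5.44%), on chromosome 6 it was 22 of 555 (3.96%, 2.50 to 5.94%) and on chromosome 19 it was 9 of 266 (3.38%, 1.56 to 6.33%). Over all chromosomes it was 763 of 11668 (6.54%, 6.10 to 7.003%). These chromosomes were picked after the values were seen, and no test was made.

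The 13 TEAD sites without YAP5SA that had a YAP peak formed no uniform class. Their TEAD1 scores ran between 115 and 2385. The 3 highest were on chromosome 5 (53996749 to 53997749, TEAD1 score 2385, YAP score 126), chromosome 3 (50661832 to 50662698, TEAD1 score 1789, YAP score 88.4) and chromosome 9 (84174417 to 84175161, TEAD1 score 1708, YAP score 100.0), with YAP peaks of 190, 224 and 159 bp. At the others the YAP peaks included wide ones, such as 3320 bp on chromosome 19 (27731725 to 27740804, TEAD1 score 640, YAP score 1259). The nearest HA-YAP5SA centre lay between 1.07 and 4587 kb away.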
